A study of Rattus norvegicus with 22 samples.

Results

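Among the 468 distinct microRNA (miRNA) names in these small RNA libraries, 6 belong to miR-9 or miR-124, taken as every name that carries exactly one of these numbers, with or without a letter, on either arm and with older star names included. They are rno-miR-9a-5p, rno-miR-9a-3p, rno-miR-9b-3p, rno-miR-124-3p, rno-miR-124-5p and rno-miR-124*, where the prefix stands for rat. The libraries came from the CA1 region of the hippocampus of male Long Evans rats aged 14 weeks. For 11 libraries the animals were dosed with the organophosphate insecticide chlorpyrifos (CPF), an inhibitor of acetylcholinesterase, at 10 mg/kg body weight per day by injection under the skin for 21 days. For the other 11 they were given the peanut oil vehicle by the same route for the same 21 days. The labels mention animals trained in fear conditioning as well as untrained ones, without assigning the libraries to either. They name no animals, so every p-value here reflects only how much these libraries vary, which may be partly technical.

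miRNAs are short RNAs that guide silencing complexes to messenger RNAs, mainly through the seed, bases 2 to 8 from the 5′ end. Each hairpin precursor can give a mature miRNA from either arm, named 5p or 3p, and an older star name marks the arm thought to be the minor one. miR-124 is the classic neuron-specific miRNA, which represses non-neuronal transcripts, among them the splicing regulator Ptbp1. miR-9 is made in neural progenitors, neurons and astrocytes and acts in neural differentiation. Both of its arms are functional, the 5p arm on the repressor REST and the 3p arm on the REST cofactor CoREST, while REST in turn represses miR-9 and miR-124 genes in non-neuronal cells.

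Mature sequences from RefSeq (rat build GRCr8) were matched by name for 3 of the 6 names. They are shown with the seed in capitals because they show how the miR-9 names differ in the bases that select targets.
miR-9a-5p: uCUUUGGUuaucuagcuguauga
miR-9a-3p: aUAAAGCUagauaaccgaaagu
miR-9b-3p: aUACAGCUagauaaccaa
The 3 seeds differ from each other, and no other of the 693 mature names in the RefSeq table carries any of them at bases 2 to 8. miR-9b-3p is the exact reverse complement of bases 4 to 21 of miR-9a-5p, since the Mir3597 genes that encode miR-9b lie across the miR-9a genes on the opposite strand.

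miR-9a is encoded by 3 genes, and miR-124 by Mir124-1, Mir124-2 and Mir124-3. The hairpins of the 3 miR-9a genes are shown with both mature arms in capitals, because these arms are identical in all 3 and only the bases around them differ. In GRCr8 all 3 are on the plus strand, Mir9-1 at chr2:175974971-175975059, Mir9-2 at chr2:15933292-15933378 inside the host gene Mir9-2hg, and Mir9-3 at chr1:142849400-142849489 inside the long noncoding host gene Mir9-3hg. The authors' files name build rn4 in their processing and carry no coordinates.
Mir9-1: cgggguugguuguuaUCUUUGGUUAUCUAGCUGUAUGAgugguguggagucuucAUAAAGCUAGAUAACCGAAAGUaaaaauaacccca
Mir9-2: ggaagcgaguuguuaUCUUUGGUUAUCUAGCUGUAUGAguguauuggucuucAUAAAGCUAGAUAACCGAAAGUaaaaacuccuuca
Mir9-3: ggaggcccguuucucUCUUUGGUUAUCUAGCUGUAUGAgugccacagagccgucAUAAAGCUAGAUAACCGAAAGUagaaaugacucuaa
A read of the mature 5p or 3p sequence therefore fits all 3 genes. Outside the arms, Mir9-1 and Mir9-2 share the 7 bases before the 5p arm, the 6 before the 3p arm and the 5 after it. Mir9-3 shares with Mir9-1 0, 2 and 1 bases at the same places, and the same numbers with Mir9-2. All 3 share the 3 bases that follow the 5p arm.

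Values are reads per 1000000 miRNA reads (RPM), where a read stands for a sequenced molecule whatever its length. How evenly different names were taken up into the libraries was not tested, so ranks and ratios between names compare reads only. Low values step by what 1 read is worth, which gave 47844 to 94980 miRNA reads per library and 10.5 to 20.9 RPM per read. All 84 member values above 0 were whole reads (within 0.05 reads). 3 reads, taken as the floor, were 31.6 to 62.7 RPM, a limit that covers counting error only. Some libraries stood apart on other miRNAs and are set aside below where a result touches them. CPF replicates 7, 8 and 9 were high in choroid plexus markers, CPF replicate 1 was far above the rest for some miRNAs, and the file of control replicate 2 is shorter but holds every miR-9 and miR-124 name.

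The levels ran from miR-9a-5p, among the most abundant miRNAs, down to names at the floor. By the mean over 22 libraries miR-9a-5p was the 6th most abundant of all names, at 51643 RPM, and took 5.16% of RPM. Its rank in single libraries ran from 4 to 8. miR-9a-3p followed at 3136 RPM (rank 31) and miR-124-3p at 748 RPM (rank 65, from 52 to 88 in single libraries). In no library did the ranges of these 3 names meet, the lowest miR-9a-5p being 34986 RPM, the highest miR-9a-3p 3831, the lowest miR-9a-3p 1902 and the highest miR-124-3p 1126. The other 3 names were near or at 0. rno-miR-124-5p was listed at 0 in 10 of 22 libraries and reached the floor in 1, CPF replicate 10, with 3 reads. rno-miR-124* was at 0 in 16 of 22 libraries and never above 2 reads, and miR-9b-3p was at 0 in all 22. Over all 22 libraries they summed to 18, 7 and 0 reads, in the order miR-124-5p, miR-124* and miR-9b-3p, while in single libraries miR-124-5p and miR-124* were too few to be ordered.

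The antisense name miR-9b-3p had no read in libraries that held 2080 to 4547 reads of miR-9a-5p. Set against 3 reads per library, miR-9a-5p was at least 693-fold higher in every library. Whether reads were counted by strand is not recorded, and without strand the reads of these overlapping genes cannot be told apart. In the files none stood under miR-9b-3p, and no row carries the name miR-9b-5p.

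miR-9a-5p, the main arm, did not differ between groups beyond the spread of the libraries. In control libraries it ran from 38074 RPM (replicate 7) over a median of 53251 to 60622 RPM (replicate 11). In CPF libraries it ran from 34986 RPM (replicate 1) over 51052 to 59850 RPM (replicate 4). The groups overlapped almost fully, with 4 of 11 CPF libraries higher than the median control and 1 below the lowest control. Means were 52435 ± 7700 RPM in control and 50852 ± 7160 in CPF (SD, n = 11 each). The log2 fold change was -0.043 (95% CI -0.22 to 0.14, limma adjusted p = 0.954), an interval of 0.857 to 1.10 times the control level. In such bulk tissue, fewer cells of a type and less RNA per cell cannot be told apart. Without CPF replicate 1 its direction turned (log2 fold change 0.0090, adjusted p = 0.978).

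miR-9a-3p, the arm once called miR-9*, was low in a few CPF libraries and did not pass the test. Controls ran from 2926 RPM (replicate 6) over 3133 to 3831 RPM (replicate 8), and CPF libraries from 1902 RPM (replicate 9) over 3197 to 3748 RPM (replicate 1). The medians were thus close, while 4 of 11 CPF libraries lay below the lowest control and none above the highest. Of these 4, CPF replicate 3 (2918 RPM) was below it by less than 1 read, worth 13.5 RPM in that library. Means were 3261 ± 281 RPM in control and 3011 ± 511 in CPF (SD, n = 11 each), a log2 fold change of -0.13 (95% CI -0.31 to 0.047, limma adjusted p = 0.788).

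The lowest values of miR-9a-3p stood in the libraries with the highest choroid plexus markers. CPF replicates 7, 8 and 9 held 2739, 2412 and 1902 RPM of miR-9a-3p, while the remaining 19 libraries held 2918 to 3831 RPM. Their summed choroid plexus and ependyma list was 2285, 4973 and 8005 RPM, while the remaining 19 summed to 580 to 1232 RPM. Of the 9 names in that list 7 were tested and none passed. The median log2 fold change of these 7 was 1.61 against 0.016 over all names, with some of the 7 below the floor. The sum of the list ran from 580 to 1097 RPM in control and from 635 to 8005 RPM in CPF, and none of its 3 defining names (miR-1298, miR-448-3p and miR-448-5p) was at 0 throughout. Without these 3 libraries the CPF mean of miR-9a-3p was 3258 ± 258 RPM (SD, n = 8), and the log2 fold change was -0.00045 (limma adjusted p = 0.998). Since they hold the 3 lowest values of miR-9a-3p, leaving them out had to raise that mean, whatever their markers. Whether choroid plexus content bears on the level of miR-9a-3p was not tested. In the same 3 libraries miR-9a-5p was 43475 to 49831 RPM and miR-124-3p 641 to 794 RPM, both inside the range of the controls. For miR-9a-5p all 3 lay below the control median of 53251 RPM. Without them its log2 fold change was -0.0089 (limma adjusted p = 0.998), and that of miR-124-3p was 0.19 (adjusted p = 0.980).

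rno-miR-124-3p, the neuronal arm, varied most of the 3 abundant names and did not differ between groups beyond that spread. Controls ran from 398 RPM (replicate 10) over 731 to 1027 RPM (replicate 6), and CPF libraries from 465 RPM (replicate 6) over 751 to 1126 RPM (replicate 11). 7 of 11 CPF libraries lay above the control median and 1 above the highest control, so the groups overlapped. Means were 718 ± 220 RPM in control and 778 ± 178 in CPF (SD, n = 11 each), a log2 fold change of 0.15 (95% CI -0.18 to 0.49, limma adjusted p = 0.911). That interval, 0.88 to 1.40 times the control level, is the widest of the 3 names. The value rests on 24 to 98 reads per library.

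**Figure D1:**
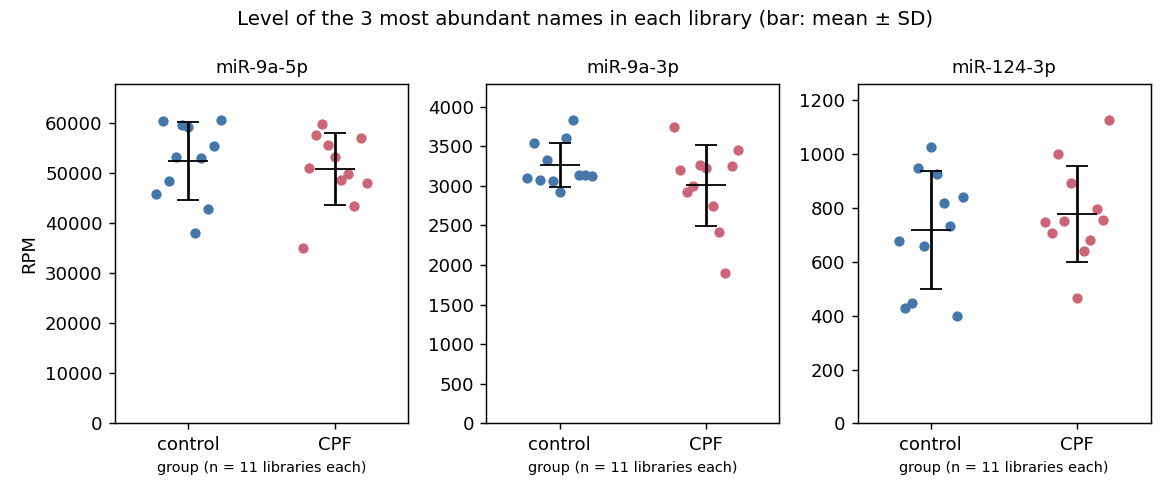
RPM of miR-9a-5p, miR-9a-3p and miR-124-3p (vertical axes, each from 0) in each library of the control and CPF groups, with points in replicate order and bars for the mean ± SD (n = 11 each). The groups overlap in each panel, and the 3 lowest miR-9a-3p points are CPF replicates 7, 8 and 9.

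Of the 6 names, 4 passed the filter on low values (at least 10 RPM in at least 11 libraries) and were tested, and 0 of these 4 passed the threshold (limma, adjusted p below 0.05). Over all 273 names tested, 0.733% were called. At an unadjusted p below 0.05 the count was also 0 of 4, against 6.59% of all names. The fourth was rno-miR-124-5p, with 9.92 ± 13.4 RPM (control) and 12.9 ± 12.5 RPM (CPF) (SD, n = 11 each), under the floor in both groups, so no fold is given. The names rno-miR-124* (5.05 ± 9.33 and 3.40 ± 5.84 RPM) and miR-9b-3p were below the filter.

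**Figure D2:**
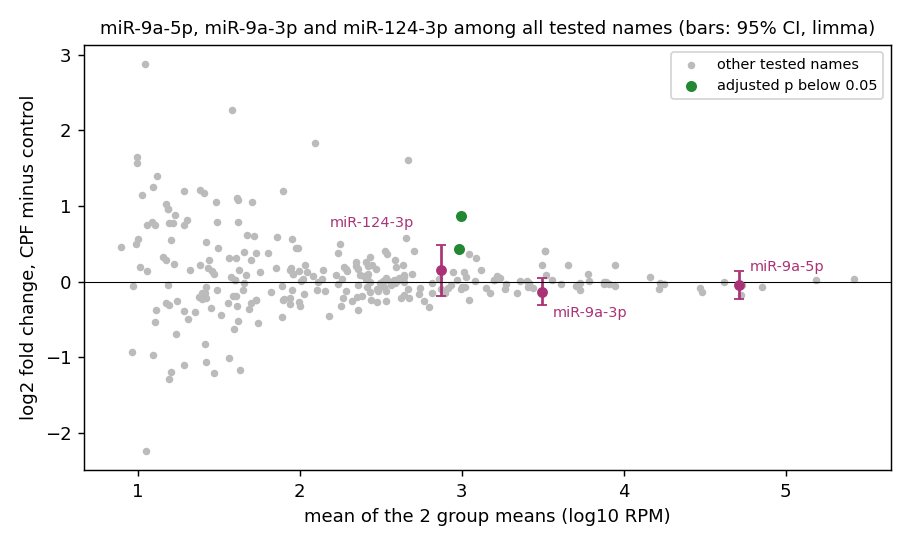
Log2 fold change, CPF minus control (vertical axis), against the mean of the 2 group means in log10 RPM (horizontal axis) for the 273 names tested, with 95% confidence intervals for miR-9a-5p, miR-9a-3p and miR-124-3p. The 3 intervals span 0, and the green points are the 2 names with an adjusted p below 0.05, miR-132-3p and miR-212-5p.

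The libraries carry code numbers whose first digit is 1 or 4 in control and 3 or 6 in CPF, and the labels do not say what it stands for. They also do not say that 3 belongs with 1 and 6 with 4, which is assumed here. miR-9a-3p averaged 3219 ± 209 RPM at digit 1 (n = 5), 3226 ± 290 at digit 3 (n = 6), 3295 ± 346 at digit 4 (n = 6) and 2752 ± 629 at digit 6 (SD, n = 5), and CPF replicates 7, 8 and 9 all carry digit 6. Its log2 fold change was 0.00078 between digits 3 and 1 (limma adjusted p = 0.999) and -0.29 between digits 6 and 4 (adjusted p = 0.783), and the difference between these values was not tested. miR-9a-5p gave -0.052 and -0.046 (adjusted p = 0.974 and 0.890). miR-124-3p gave 0.29 and 0.047 (adjusted p = 0.953 and 0.931).

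A single arm dominated each family, the 5p arm in miR-9a and the 3p arm in miR-124. In miR-9a the 5p arm exceeded the 3p arm 16.2 ± 2.92 times in control and 17.4 ± 3.64 times in CPF libraries (SD, n = 11 each). The ratio was lowest in CPF replicate 1 (9.33) and control replicate 7 (10.6) and highest in CPF replicate 9 (22.9). Its log2 value was 3.996 ± 0.276 in control and 4.08 ± 0.347 in CPF, a difference of 0.089 (two-sided permutation p = 0.519, adjusted p = 0.678, with 8 of 11 CPF libraries over the median control). It was 0.029 without control replicate 7, 0.175 without CPF replicate 1 and 0.046 without CPF replicate 9. Without CPF replicates 7, 8 and 9 that difference was -0.0084. In miR-124, over all libraries 25 of 1233 miR-124 reads were miR-124-5p or miR-124*, or 2.03% (95% exact Clopper-Pearson interval 1.32 to 2.98%, which covers counting error only and not the spread between libraries). This was 11 of 576 in control and 14 of 657 in CPF, too few for a test of its balance. The minor arm of miR-9a took 5048 of 87236 reads, or 5.79%, and between libraries its share of miR-9a RPM ran from 4.19% over a median of 5.54% to 9.68%.

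The summed families did not differ between groups beyond the spread of the libraries. The share of RPM on miR-9 names was 5.57 ± 0.766% (control) and 5.39 ± 0.716% (CPF; SD, n = 11 each, two-sided permutation p = 0.565, adjusted p = 0.678, with 4 of 11 CPF libraries over the median control). For the miR-124 names it was 0.0733 ± 0.0215% and 0.0794 ± 0.0183% (permutation p = 0.475, adjusted p = 0.678, 7 of 11 over it). In reads, miR-9a-5p exceeded miR-124-3p 81.6 ± 34.1 times in control and 68.6 ± 19.6 times in CPF. On the log2 scale the difference in this ratio was -0.19 (permutation p = 0.363, adjusted p = 0.678, 6 of 11 over it). It was -0.105 without control replicate 2 and -0.107 without control replicate 10, and its range with single libraries left out was -0.283 to -0.105. 6 measures per library were tested in this way, and p-values were adjusted over them.

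miR-9a-5p, miR-9a-3p and miR-124-3p each stand on 3 rows of every file, and miR-124-5p on 2. The rows carry no gene name, so which row belongs to which gene cannot be told. The 3 rows of miR-9a-5p were unequal in the same way in every library. The first held 61.2 ± 2.05% of its RPM (56.1 to 65.6%), the second 19.3 ± 1.04% and the third 19.5 ± 1.23% (SD, n = 22). The 3 rows of miR-9a-3p were split another way, with 44.7 ± 3.43% on the first, 43.5 ± 3.19% on the second and 11.9 ± 2.06% on the third, which was never above 16.5%. Thus for the 5p arm a single row stood above a pair of like rows, and for the 3p arm a single row stood below a pair. The hairpins printed above, with identical arms in all 3 genes, are shown for this reason.

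miR-124-3p was on average evenly split, with 33.4 ± 8.57%, 33.2 ± 7.14% and 33.4 ± 8.79% on its rows (SD, n = 22), though with few reads a single library could hold 18.4 to 55.3% on a row. The split of miR-9a-5p did not differ between groups beyond the spread. Its first row held 61.7 ± 2.38% in control and 60.7 ± 1.60% in CPF (SD, n = 11 each, two-sided permutation p = 0.239, adjusted p = 0.678, with 3 of 11 CPF libraries over the median control). Nor did the third row of miR-9a-3p, at 11.8 ± 1.48% and 11.9 ± 2.59% (permutation p = 0.892, adjusted p = 0.892, 7 of 11 over it). These row measures and the ratio of miR-9a-5p to miR-124-3p were chosen after their values were seen.

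**Figure D3:**
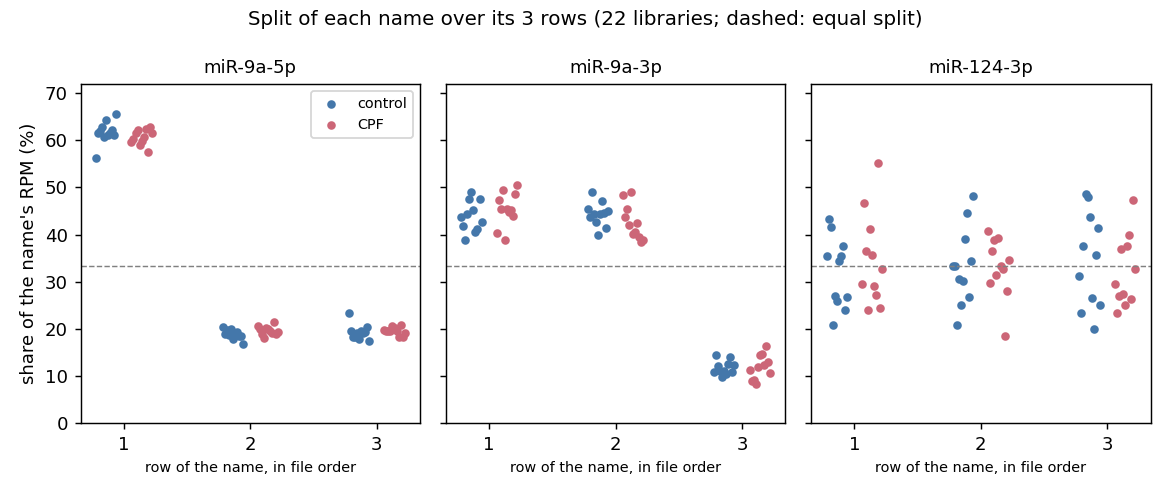
Share of each name's RPM (percent, vertical axis) on each of its 3 rows in file order (horizontal axis) for miR-9a-5p, miR-9a-3p and miR-124-3p, with 1 point per library in control and CPF and a dashed line at an equal split. The first miR-9a-5p row sits at 56.1 to 65.6% and the third miR-9a-3p row at 8.33 to 16.5%, while the miR-124-3p rows scatter around the line.

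The names varied by different amounts between libraries of a group. The coefficient of variation of miR-9a-5p was 14.7% in control and 14.1% in CPF, where counting error for its reads would give 1.64% and 1.63%. That of miR-9a-3p was 8.62% and 17.0% (counting error 6.57% and 6.63%), and that of miR-124-3p 30.6% and 22.9% (counting error 14.0% and 13.1%). Counting error shrinks with depth, and each pair takes it at the name's own mean number of reads. The spread beyond counting error was not computed, so the names are not ranked by it.

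No relation over libraries was detected between the families or between the arms of miR-9a. Over 22 libraries, log2(RPM + 1) of miR-9a-5p and miR-124-3p had a Pearson r of -0.103 (permutation p = 0.649, adjusted p = 0.983) and a Spearman rho of 0.0186 (permutation p = 0.936, adjusted p = 1). Without the 2 libraries farthest in miR-9a-5p r was 0.0032. Within control r was -0.169 (permutation p = 0.619) and within CPF 0.0316 (permutation p = 0.919). miR-9a-5p and miR-9a-3p, cut from the same hairpins, had r = -0.0178 and rho = -0.137 (permutation p = 0.936 and 0.538, adjusted p = 0.983 and 1), with r = 0.39 without the 2 farthest libraries. miR-9a-3p and miR-124-3p had r = 0.0049 and rho = 0.137 (permutation p = 0.983 and 0.538, adjusted p = 0.983 and 1), with r = 0.0794 without the 2 farthest. None of the 9 relations computed, 3 pairs over all libraries and in each group, passed.

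The pattern of miR-9a-5p over libraries was most like that of miR-101a-3p. Among 176 tested names with a mean of at least 50 RPM, the highest Pearson r of log2(RPM + 1) over 22 libraries were 0.917 for miR-101a-3p, 0.832 for miR-6331, 0.831 for the neuron-enriched miR-218a-5p, 0.772 for miR-30e-3p and 0.733 for let-7i-5p. For miR-101a-3p r was 0.98 within control and 0.866 within CPF. The lowest r were -0.703 for miR-24-3p, -0.658 for miR-125b-5p and -0.652 for the oligodendrocyte-rich miR-338-3p. These are descriptions, since all names of a library share its depth, preparation and total. These r were not computed again without control replicate 7 and CPF replicate 1, the libraries lowest in miR-9a-5p. How far they rest on these libraries is not known. The split of reads is uncertain for miR-218a-5p, miR-24-3p, miR-125b-5p and miR-338-3p, each with a gene that overlaps another miRNA gene.

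The likeness is visible in the extreme libraries. miR-101a-3p was lowest in control replicate 7 (3348 RPM) and CPF replicate 1 (3517 RPM) and highest in control replicate 11 (7965 RPM) and CPF replicate 4 (8343 RPM), the same libraries as for miR-9a-5p. miR-24-3p was highest in control replicate 7 (10175 RPM) and CPF replicate 1 (9465 RPM). The mature sequences of the 2 most alike names are shown to compare their letters with miR-9a-5p, with the seed again in capitals.
miR-101a-3p: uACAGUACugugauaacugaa
miR-6331: cUUUGGUGgcuuaguucuuugugc
The seeds differ from that of miR-9a-5p. The letters CUUUGGU of its seed occur at bases 1 to 7 of miR-6331, and 2 of the 693 mature names hold them anywhere on the given strand (0.289%), these being miR-9a-5p and miR-6331. The GC content was 34.8% in miR-9a-5p, 33.3% in miR-101a-3p, 45.8% in miR-6331 and 54.5% in miR-24-3p.

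**Figure D4:**
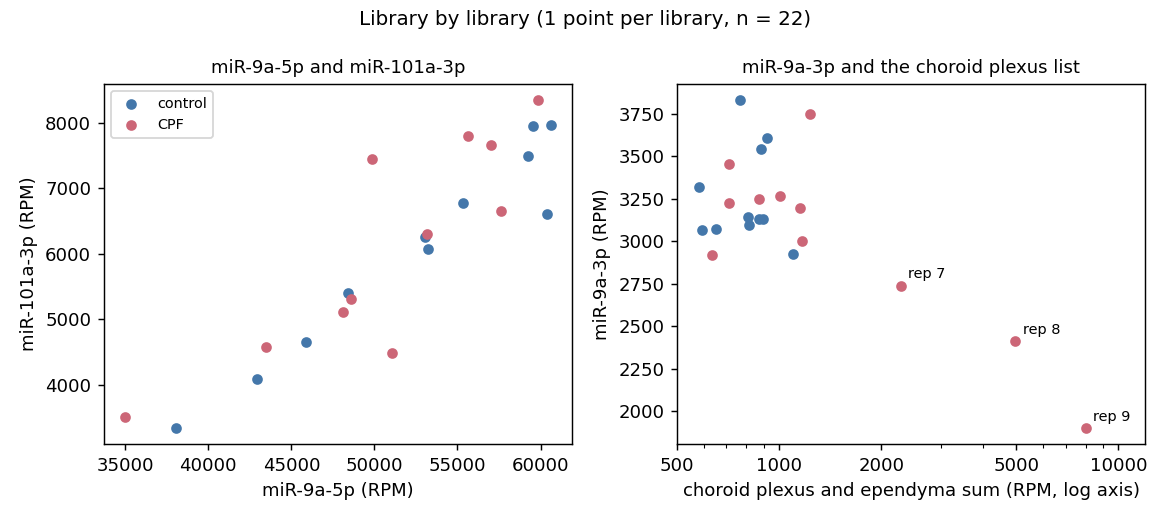
Left, RPM of miR-101a-3p against RPM of miR-9a-5p, and right, RPM of miR-9a-3p against the summed RPM of the choroid plexus and ependyma list on a log axis, with 1 point per library (n = 22, control and CPF coloured). On the left the libraries lie along a rising line from 34986 RPM of miR-9a-5p upward, and on the right CPF replicates 7, 8 and 9 stand apart at 2285 to 8005 RPM.

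The oligodendrocyte-rich miR-338-3p was highest in the libraries where miR-9a-5p was lowest, while the other names of its list were not uniformly so. It stood at 86540 RPM in control replicate 7 and 77616 RPM in CPF replicate 1, the highest of 22 libraries, and it is one of the names already picked as least like miR-9a-5p. The summed list of 4 names, of which miR-338-3p made up 91.4 to 96.1% in a library, was 90059 and 81828 RPM there, while the remaining 20 libraries summed to 33453 to 74542 RPM. Of the 2 defining names, neither at 0 throughout, miR-219-5p was also highest there, at 520 and 537 RPM over a range of 166 to 537 RPM. The other, miR-219-2-3p, was not, at 778 and 958 RPM (ranks 18 and 13 of 22) over a range of 629 to 1373 RPM. Nor was miR-338-5p, the other arm of miR-338, at 2222 and 2716 RPM (ranks 11 and 3 of 22). In CPF replicate 9, also low in miR-9a-5p (43475 RPM), miR-338-3p ranked 20 of 22. All 4 names of the oligodendrocyte list were tested and none passed between groups, and the part of this list in the level of miR-9a-5p was not tested. Of the other lists of non-neuronal cells, 4 of 5 microglial, 4 of 5 vessel and 1 of 4 red blood cell names were tested, and none passed. In control replicate 7 and CPF replicate 1 the vessel list summed lowest of each group (222209 and 221152 RPM). The REST-linked list described below summed highest of each group there (79800 and 88819 RPM).

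The other neuronal miRNAs were present as well, and none of the 8 defining names (miR-128 and miR-138) was at 0 throughout. Of 37 names in a neuron-enriched list, 27 were tested, 2 rose in CPF and 0 fell (limma, adjusted p below 0.05), where 0.733% of all 273 names were called and these 2 were all of them. The median log2 fold change was 0.086 against 0.016 over all names. Over names with a mean at or above the highest floor it was 0.055 (14 names) against 0.0078 (172 names). Its most abundant members were miR-128, an abundant regulator of neuronal excitability (7674 ± 1352 RPM in control, 7558 ± 1626 in CPF, SD, n = 11 each, adjusted p = 0.972), and miR-138-5p, which acts in dendritic spines (2287 ± 323.3 and 2295 ± 190 RPM, adjusted p = 0.974). Both were above miR-124-3p. In a list of miRNA genes linked to REST regulation, which shares names with the first, 15 of 18 names were tested. The same 2 rose, again against 0.733% of all names, and 0 fell. The median log2 fold change was 0.23 (0.27 over the 8 names at or above the highest floor), and 7 of the 15 lay below that floor. Its most abundant members were miR-29a-3p (54741 ± 8529 and 53264 ± 7953 RPM, adjusted p = 0.954), whose gene overlaps another, and miR-153-3p (485.8 ± 110 and 1728 ± 4216 RPM, adjusted p = 0.917), the latter raised by CPF replicate 1. Both lists name miR-132 and miR-212 and were chosen with earlier results of these data known. Their counts and medians are therefore not a test of either list.

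The 2 that rose are the activity-induced neighbours miR-132-3p (from 698 ± 159 to 1292 ± 362 RPM, a log2 difference of 0.87 at a limma adjusted p of 0.00131) and miR-212-5p (from 820 ± 106 to 1101 ± 129.01 RPM, 0.43, adjusted p = 0.00456). In the same libraries the log2 fold changes of the miR-9 and miR-124 names given above ran from -0.13 to 0.15.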

How the data were processed

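The deposited files give reads per 1000000 (RPM) per miRNA name, per the file headers, as computed by the authors. Per the submitters' processing notes, the tools were CASAVA 1.8.2, cutadapt 1.2, Partek 6.6 and Bowtie, on build rn4, with no roles stated. Which miRNA annotation was used, how reads that match several rows were handled and whether strand counted is not given in the sources used here. The 484 rows of a complete file carry 468 distinct names, and rows of the same name were summed (miR-9 and miR-124 stand on 13). The 36 rows beyond the end of the file of control replicate 2 were treated as missing.

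Group differences came from limma 3.58.1 (R 4.3.3, mean-variance trend) on log2(RPM + 1) of the 273 names that reached 10 RPM in 11 or more libraries, two-sided, with Benjamini-Hochberg adjustment over all of them and a threshold of 0.05. Fold changes are on this scale. On simulated data the fit was only required to call most of the largest changes, and false calls were not counted. Measures per library were compared by a permutation test with 100000 resamples (numpy 2.4.6), and intervals of shares came from scipy 1.17.1. Reads per library were taken from the most frequent value above 0 as 1 read, refined on its higher multiples, and 93.1 to 97.7% of the values under 100 reads in a library were whole on that scale (within 0.05 reads). The labels give replicate numbers 1 to 11 in both groups.

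The names described, the marker lists and several tests were chosen with earlier results of these data known. Named besides the miR-9 and miR-124 names were the 2 most abundant members of the neuron-enriched and REST-linked lists and any that passed, and the 5 names most and the 3 least like miR-9a-5p. No other name shared a seed with the 3 miR-9 names, and the seeds of the miR-124 names were not analysed here. Alternatives were other pseudocounts, filters and scalings, a replicate block, contrasts within code digits, and fits without single libraries.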

Additional observations from a re-analysis of the deposited data

How the results depend on the processing

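No alternative brought a miR-9 or miR-124 name or a measure of them past the threshold. The planned count tests were not run, since not all libraries gave whole reads for nearly all low values. The count of names past the threshold was 1 for code digit 3 against 1 and 1 for 6 against 4, fits on fewer libraries, against 2, and between 2 and 3 with single libraries left out. Leaving out each library in turn gave log2 fold changes of -0.088 to 0.0090 for miR-9a-5p, -0.17 to -0.068 for miR-9a-3p and 0.073 to 0.22 for miR-124-3p (limma adjusted p 0.639 to 0.998). Directions turned in these settings, and the cause was not tested. miR-9a-5p turned to 0.0090 without CPF replicate 1, and miR-9a-3p to 0.00078 at digits 3 and 1. The difference in the arm balance of miR-9a turned to -0.0084 without CPF replicates 7, 8 and 9 and to -0.053 at digits 3 and 1. The difference in the third row of miR-9a-3p (0.122 percentage points over all libraries) turned to -0.831 and -0.999 in the same settings and ran from -0.333 to 0.482 with single libraries left out. The correlation of miR-9a-5p with miR-124-3p turned to 0.0316 within CPF and 0.0032 without the 2 farthest libraries. With the replicate block 2 names passed, none of them miR-9 or miR-124 (miR-9a-5p adjusted p = 0.961, miR-9a-3p 0.816, miR-124-3p 0.938). Same-numbered libraries of the 2 groups did not deviate together (r -0.0867 to 0.193 over 11 pairs, above 0.1 in 2), and 1 of 11 CPF libraries correlated best with the control of its own number. The row measures, the ratio of the families, the code digits for the measures per library and the list medians above the floor were added after the data were seen. Depth limits miR-124-5p, miR-124* and miR-9b-3p, all under 3 reads on average.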

Other observations

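The names whose pattern over libraries was most and least like that of the other arms were looked up after the values were seen, among the same 176 names. For miR-9a-3p the highest Pearson r of log2(RPM + 1) over 22 libraries was 0.691, for miR-29a-3p. The lowest were -0.731 for the choroid plexus miRNA miR-1298, -0.706 for the vessel-rich miR-143-3p and -0.705 for the ciliated-cell miRNA miR-34c-5p. For miR-1298 r was 0.0176 within control and -0.862 within CPF, where replicates 7, 8 and 9 stand apart. For miR-34c-5p r was likewise 0.0599 within control and -0.846 within CPF. For miR-143-3p r was -0.513 and -0.772. For miR-124-3p the highest r was 0.659, for miR-325-5p (over 21 libraries, 0.805 within control and 0.464 within CPF), and the lowest was -0.542, for miR-7a-1-3p. These values are given as a description, since the names of a library share its depth and total.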
